A study of Homo sapiens with 12 samples.

Results

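The expression of 10 genes of pericellular proteolysis was followed over 12 expression arrays of 2 human myeloid cell lines. They are the matrix metalloproteinases MMP9, MMP2 and MMP14, the tissue inhibitors TIMP1, TIMP2 and TIMP3, urokinase (PLAU) and its receptor (PLAUR), and the membrane-bound proteases ADAM8 and ADAM10. Every probe set annotated to 1 of these 10 genes alone was taken, which gave 22 of the 22215 probe sets that were not array controls; these 10 are among 11963 genes with such a probe set. U937 is a monocytic line and MV4-11 a myelomonocytic line with an MLL fusion. The line of each array is taken from its label, and line identity was not tested. Each line received lentivirus, marked by green fluorescent protein, with either a scrambled shRNA or an shRNA against CHD4, the ATPase of the chromatin remodelling complex NuRD, and 3 arrays were made per group. Both arms of each line thus carry a lentiviral hairpin. The target is written CDH4 in the labels of the samples, and the number of hairpin sequences, the time after infection and any sorting of infected cells are not stated there. The comparison in each line asks which transcripts change when CHD4 is depleted. All levels below are on the log2 scale after RMA, that is, background-corrected and quantile-normalized signals of a probe set, and a difference of 1 is a doubling.

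Pericellular proteolysis is the cutting of proteins at or just outside the cell surface. Matrix metalloproteinases are zinc enzymes made as inactive precursors; MMP9 and MMP2 are the gelatinases, which degrade denatured collagen and basement membrane, and MMP14 sits in the membrane and activates the MMP2 precursor with the help of TIMP2. TIMP proteins block the active enzymes, and TIMP1 binds the MMP9 precursor as well. Urokinase, held on the cell by its receptor, converts plasminogen to plasmin, while ADAM proteases release the outer parts of membrane proteins. Monocytes and macrophages use these enzymes to cross basement membranes and remodel tissue.

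The 3 CHD4 probe sets were between 3.36-fold and 4.58-fold lower with CHD4 shRNA in both lines, and their arrays did not overlap between the groups. Arrays within a group correlated with one another at 0.987 or higher across probe sets. At a limma adjusted p under 0.05, 988 of the 22215 probe sets differed between the scrambled controls of the lines. CHD4 shRNA against scrambled gave 1002 in U937 and 1659 in MV4-11. By this count no more probe sets differed between the lines than between the arms. On the first principal component all U937 arrays (-29.67 to -1.49) lay below all MV4-11 arrays (0.87 to 47.87). U937 CHD4 shRNA replicate 3 stood apart from replicates 1 and 2 of its group on the first principal component (-1.49, against -19.10 and -16.82). MV4-11 CHD4 shRNA replicate 2 stood highest on that axis (47.87, against 30.16 and 19.94), so results are also given without these arrays. On the second component MV4-11 CHD4 shRNA replicate 3 stood apart from replicates 1 and 2 of its group (6.39, against -13.80 and -18.39). Without that array 3143 probe sets passed in MV4-11 by limma, against 1659 with it. Of 8 measured myeloid marker genes, LYZ, CEBPA, PTPRC, ITGB2 and FCER1G had means over the 12 arrays well above the array medians of 6.97 to 7.02, CSF1R was at the median (7.05), and MPO (5.46) and SPI1 (6.45) were below it. None of the T-cell, erythroid and epithelial markers measured (0 of 4, 0 of 3 and 0 of 4) exceeded that median, while 1 of 3 B-cell (PAX5, 7.74), 1 of 5 fibroblast (COL1A1, 7.68) and 1 of 4 endothelial markers (PECAM1, 10.20) did.

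MMP9 rose in both lines, and it was the only gene of the 10 with a call in both. In U937 its probe set read 7.05, 7.20 and 6.77 on the scrambled arrays and 8.30, 8.57 and 9.23 on the CHD4 shRNA arrays. Every CHD4 shRNA array was above every scrambled array, and replicate 3 held both the lowest control and the highest treated value. The mean went from 7.01 ± 0.22 to 8.70 ± 0.48 (SD, n = 3), a log2 difference of 1.69 (SE 0.21), or 3.23-fold (95% interval 2.37-fold to 4.42-fold; limma adjusted p = 0.000731). It ranked as number 22 from the top among the differences of all 22215 probe sets. Without CHD4 shRNA replicate 3 the log2 difference was 1.43 (limma adjusted p = 0.00163). In bulk RNA, more cells with the transcript and more transcript per cell cannot be told apart, and this holds for every gene here.

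In MV4-11 the MMP9 probe set read 7.36, 7.13 and 7.38 with scrambled shRNA and 8.77, 8.81 and 8.33 with CHD4 shRNA. The groups were again fully separate, here with replicate 3 as the lowest of the treated arrays. The mean went from 7.29 ± 0.14 to 8.64 ± 0.27 (SD, n = 3), a log2 difference of 1.35 (SE 0.21), or 2.54-fold (95% interval 1.86-fold to 3.48-fold; limma adjusted p = 0.0029), number 103 from the top. It was 1.26 without CHD4 shRNA replicate 2 (limma adjusted p = 0.0112). The change in MV4-11 minus that in U937 was -0.35 (95% interval -0.98 to 0.29; limma adjusted p = 0.944), so the lines were not shown to differ in the size of the rise. The scrambled controls of the lines overlapped in MMP9, with MV4-11 minus U937 at 0.28 (SE 0.21, limma adjusted p = 0.51).

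**Figure D1:**
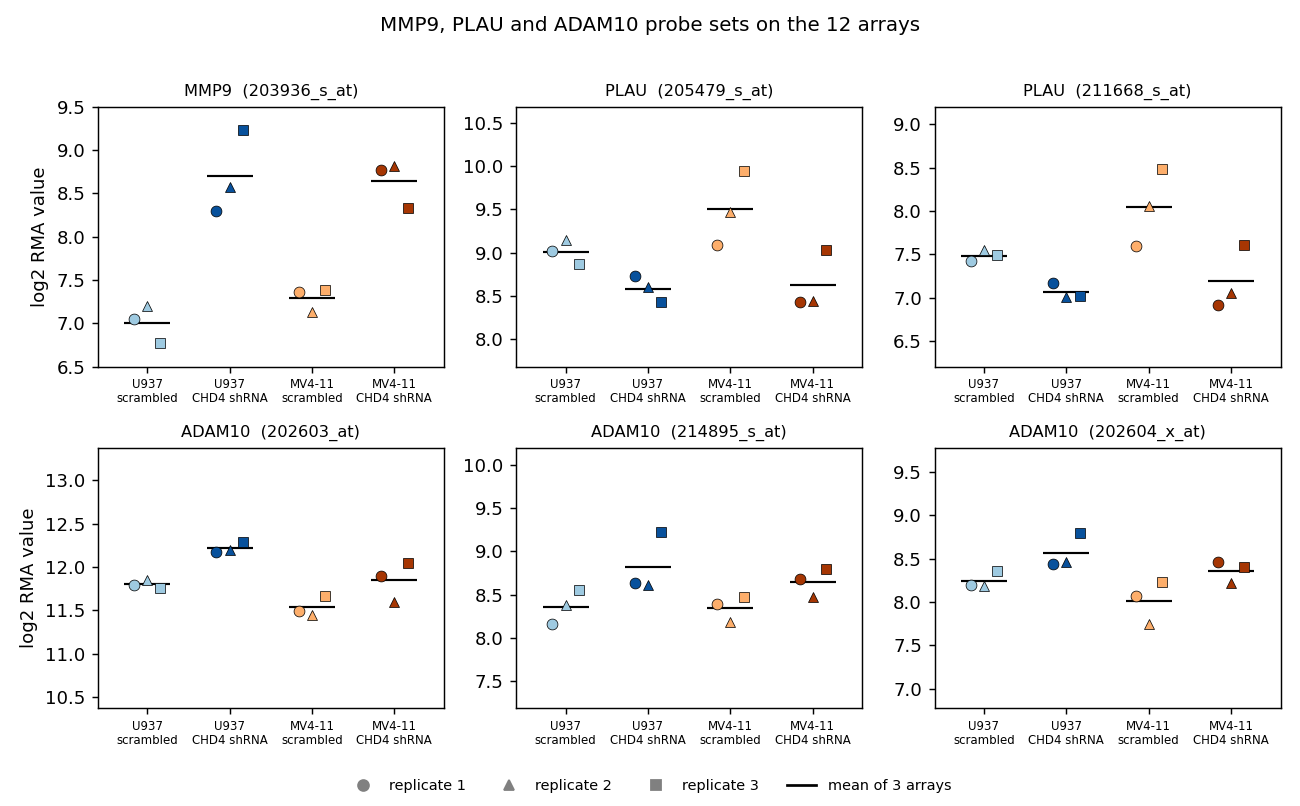
Log2 RMA values (vertical axes, each spanning 3 log2 units) of the MMP9, PLAU and ADAM10 probe sets in the 4 groups; symbols are the 3 replicates and bars the group means. MMP9 values of 8.30 to 9.23 with CHD4 shRNA lie above all scrambled values of 6.77 to 7.38, PLAU means are lower with CHD4 shRNA (passing in MV4-11), and ADAM10 means are 0.30 to 0.46 higher without passing.

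The other gelatinase did not follow MMP9. MMP2 read 8.07, 8.39 and 7.96 in U937 scrambled arrays and 8.07, 8.17 and 8.05 with CHD4 shRNA, a log2 difference of -0.043 (95% interval -0.32 to 0.24; limma adjusted p = 0.925). In MV4-11 it read 7.12, 7.49 and 7.51, then 7.5, 7.66 and 7.59, a difference of 0.21 (95% interval -0.069 to 0.49; limma adjusted p = 0.377). The arms overlapped in both lines. MMP2 was instead the 1 probe set of the 22 that separated the scrambled controls, at 7.37 ± 0.22 in MV4-11 against 8.14 ± 0.22 in U937 (SD, n = 3), or 1.70-fold lower in MV4-11 (log2 difference -0.77, SE 0.13, limma adjusted p = 0.00481). Between these controls 4.45% of all probe sets passed.

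MMP14, the membrane activator of MMP2, has 4 probe sets, and none passed with CHD4 shRNA in either line. Their log2 differences ran from -0.15 to 0.040 in U937 and from -0.11 to -0.020 in MV4-11, and the arms overlapped in all 4. At an unadjusted p under 0.05 limma also called 0 of 4 in each line, beside 17% of all probe sets in U937 and 22.3% in MV4-11. The 202827_s_at probe set had the least precise difference, with an interval from -0.44 to 0.15 in U937. That probe set also read 6.24 ± 0.13 in MV4-11 against 5.89 ± 0.31 in U937 controls (SD, n = 3; limma adjusted p = 0.193), whereas the other 3 differed between the controls by -0.067 to 0.14.

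None of the 6 probe sets of the tissue inhibitors passed in either line by limma, nor did any reach an unadjusted p under 0.05 (0 of 6). Over all probe sets 17% reached that p in U937 and 22.3% in MV4-11. TIMP1 read 11.52, 11.67 and 11.21 in U937 scrambled arrays and 11.57, 11.56 and 11.31 with CHD4 shRNA. In MV4-11 it read 11.29, 11.41 and 11.43, then 11.42, 11.40 and 11.44. The arms overlapped in both lines, with differences of 0.013 (95% interval -0.24 to 0.27; limma adjusted p = 0.978) and 0.043 (95% interval -0.21 to 0.30; limma adjusted p = 0.882). The intervals of TIMP1 therefore lie below those of MMP9 in the same line, which start at 1.24 and 0.90. TIMP2, which also assists the activation of MMP2, differed by -0.080 in U937 (95% interval -0.37 to 0.21) and by -0.037 in MV4-11 (95% interval -0.33 to 0.25). The 4 probe sets of the matrix-bound inhibitor TIMP3 differed by -0.080 to 0.047 in U937 and by -0.16 to 0.093 in MV4-11. Their means over the 12 arrays spread widely, from 3.57 to 6.99, and 2 of them lay below the level of the dimmest 25% of all probe sets (5.34), where background compresses any difference.

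**Figure D2:**
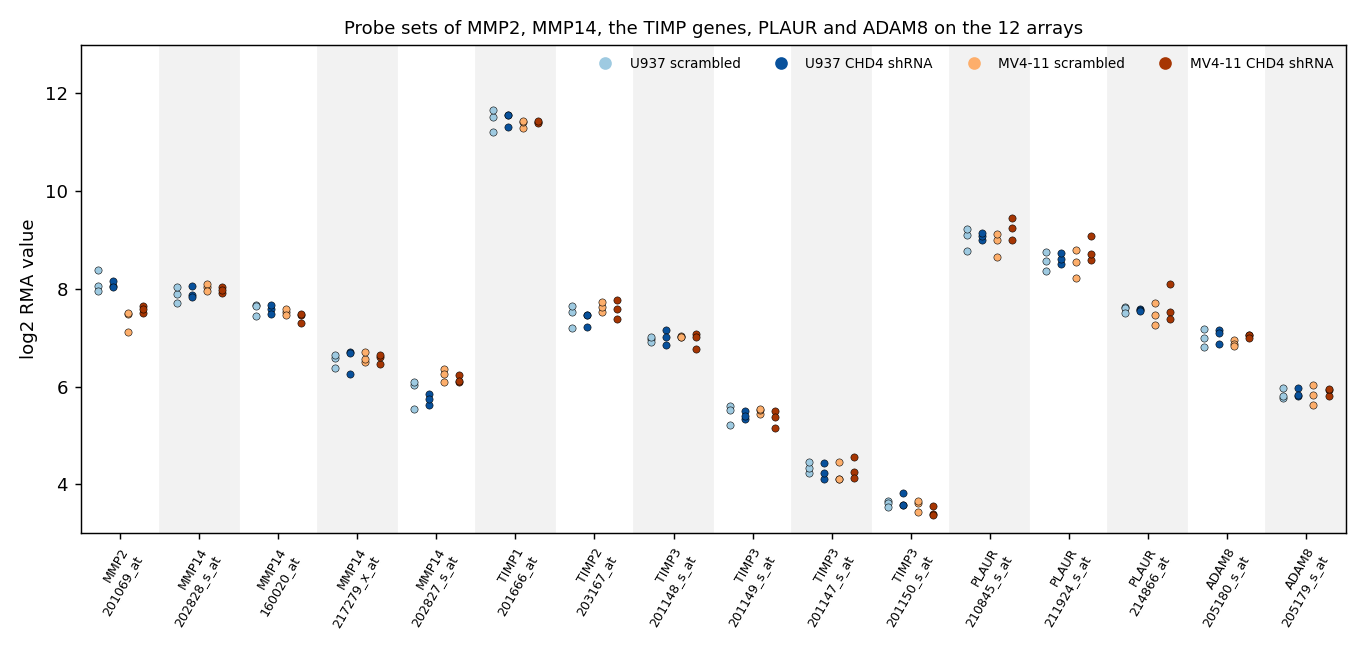
Log2 RMA values (vertical axis) of the 16 probe sets of MMP2, MMP14, TIMP1, TIMP2, TIMP3, PLAUR and ADAM8 on each of the 12 arrays, coloured by group. The arms of a line lie close together, and MMP2 is lower in MV4-11 (7.12 to 7.66) than in U937 (7.96 to 8.39).

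In the plasminogen activator system the enzyme passed in 1 line and its receptor in neither. Urokinase fell in MV4-11 on both of its probe sets. The 205479_s_at probe set read 9.09, 9.47 and 9.94 with scrambled shRNA and 8.43, 8.44 and 9.03 with CHD4 shRNA and the arms did not overlap. The mean went from 9.50 ± 0.43 to 8.63 ± 0.34 (SD, n = 3), a log2 difference of -0.87 (SE 0.20), or 1.82-fold lower (limma adjusted p = 0.0218). The 211668_s_at probe set read 7.60, 8.06 and 8.49, then 6.92, 7.06 and 7.61, a log2 difference of -0.85 (SE 0.20, limma adjusted p = 0.0234). Its arms overlapped, because CHD4 shRNA replicate 3 stood just above scrambled replicate 1. On both probe sets replicate 3 was the highest array of its arm, and within each replicate number CHD4 shRNA was lower, with log2 differences of -0.66, -1.03 and -0.91 on the first probe set and of -0.68, -1.0 and -0.88 on the second. With the replicate number as a block within each line, the limma adjusted p was 0.00105 on both. Without the block both calls were lost when any of 4 arrays was left out: scrambled replicate 2 (limma adjusted p = 0.0607 and 0.0683), scrambled replicate 3 (0.0832 and 0.0895), CHD4 shRNA replicate 1 (0.102 and 0.114) or CHD4 shRNA replicate 2 (0.0776 and 0.0779). A fit restricted to the MV4-11 arrays lost them as well (0.104 and 0.12).

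In U937 the PLAU differences had the same sign and did not pass in the model without a block. The 205479_s_at probe set read 9.02, 9.15 and 8.87 in controls and 8.73, 8.60 and 8.43 with CHD4 shRNA, and the 211668_s_at probe set read 7.42, 7.55 and 7.49, then 7.17, 7.01 and 7.02. The arms did not overlap on either. The log2 differences were -0.43 (95% interval -0.86 to 0.010; limma adjusted p = 0.307) and -0.42 (95% interval -0.86 to 0.018; limma adjusted p = 0.318). A fit restricted to the U937 arrays called the second (limma adjusted p = 0.0386). A block for the MV4-11 arrays only, which lowers the pooled spread, called both (limma adjusted p = 0.0427 and 0.0196). The first passed in 2 of 22 alternatives and the second in 3 of 20. The MV4-11 change minus the U937 change was -0.44 and -0.43 on these probe sets (SE 0.29 each, limma adjusted p = 0.944 for both), so no difference between the lines was shown.

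PLAUR, the receptor that holds urokinase at the surface, did not pass in either line on any of its 3 probe sets. In each line limma gave 0 of 3 an unadjusted p under 0.05, beside 17% of all probe sets in U937 and 22.3% in MV4-11. In U937 its differences were between -0.020 and 0.057. In MV4-11 they were 0.31, 0.28 and 0.19, with the interval of the brightest probe set, 210845_s_at, from -0.020 to 0.63 (limma adjusted p = 0.257). On that probe set the MV4-11 arrays read 8.65, 9.0 and 9.13 with scrambled and 9.01, 9.45 and 9.24 with CHD4 shRNA. CHD4 shRNA was higher within each replicate number, yet the arms overlapped, since the spread between numbers was as large as the shift.

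The start regions of enzyme and receptor are shown because PLAU is the second gene with a call and PLAUR encodes its docking site; this pair was chosen after their values were seen. Each is given 5′ to 3′ on the gene's strand, from 250 bases before the start to 50 after it, from RefSeq's GRCh38.p14 annotation, at chr10:73910360-73910659 (plus strand) for PLAU and chr19:43670120-43670419 (minus strand) for PLAUR. Capitals mark matches to any of 4 motifs searched on both strands: AP-1 (TGANTCA), NF-kB (GGG, any 2 bases, then TTTCC), the GC box (GGGCGG) and an ETS core (CCGGAA).
PLAU: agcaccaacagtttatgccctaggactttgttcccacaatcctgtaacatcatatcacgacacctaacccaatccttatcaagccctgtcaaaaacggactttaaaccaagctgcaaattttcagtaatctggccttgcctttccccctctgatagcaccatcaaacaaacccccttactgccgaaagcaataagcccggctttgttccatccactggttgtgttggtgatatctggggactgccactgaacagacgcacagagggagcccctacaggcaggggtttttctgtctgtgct
PLAUR: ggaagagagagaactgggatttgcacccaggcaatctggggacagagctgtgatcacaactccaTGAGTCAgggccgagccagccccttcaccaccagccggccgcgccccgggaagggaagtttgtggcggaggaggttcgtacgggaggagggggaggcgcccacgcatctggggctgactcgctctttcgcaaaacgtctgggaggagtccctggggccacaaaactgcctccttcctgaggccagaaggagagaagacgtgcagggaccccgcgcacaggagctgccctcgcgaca

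The PLAUR window held 1 AP-1 match, from -186 to -180 relative to the start, and no other match, and the PLAU window held none of the 4 motifs. Among 27305 promoter windows of the same length 7.76% held an AP-1 match, 1.92% an NF-kB match, 44.6% a GC box and 17.6% an ETS core. Windows were matched for 7 of the 10 genes; MMP9, MMP2 and TIMP2 had none. In the other 5 windows, AP-1 and NF-kB gave no match, TIMP3 held 5 GC boxes, ADAM8 held 3, TIMP1 held 2, and MMP14 and ADAM10 held 1 each. MMP14 also held an ETS core, from 41 to 46 bases after the start.

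ADAM10, the sheddase that cleaves Notch receptors, had positive differences on all 3 of its probe sets in both lines, none of which passed. At an unadjusted p under 0.05 limma called 3 of the 3 in U937, where 17% of all probe sets reached it. In MV4-11 it called 2, where the share was 22.3%. In U937 the brightest probe set, 202603_at, read 11.79, 11.85 and 11.76, then 12.17, 12.19 and 12.29. The arms were separate and tight, at 11.80 ± 0.046 and 12.22 ± 0.064 (SD, n = 3), and the log2 difference was 0.42 (95% interval 0.17 to 0.66; limma adjusted p = 0.0551). The other 2 probe sets, 214895_s_at and 202604_x_at, differed by 0.46 and 0.32 (limma adjusted p = 0.151 and 0.239), also with no overlap. Without CHD4 shRNA replicate 3 the difference was 0.38 on 202603_at (limma adjusted p = 0.165) and 0.26 on 214895_s_at (limma adjusted p = 0.41). Of 22 alternatives, 202603_at passed in 8, among them 2 of the 12 fits without 1 array. With a replicate block within each line it passed (limma adjusted p = 0.0184), and so did 214895_s_at (0.0179), though no pairing was assumed in U937. The first probe set passed in a fit restricted to the U937 arrays (limma adjusted p = 0.0328), with trend and robust fitting (0.0358), when the dimmest 25% of probe sets were left out (0.0455), with 1 probe set per gene (0.0456), with a block for the MV4-11 arrays only (0.015), and without MV4-11 CHD4 shRNA replicate 2 (0.0213) or 3 (0.033), arrays that bear on U937 only through the pooled spread.

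In MV4-11 the ADAM10 differences were 0.31, 0.30 and 0.34 in the same order of probe sets (limma adjusted p = 0.118, 0.308 and 0.151). On 202603_at the arrays read 11.49, 11.45 and 11.67, then 11.90, 11.60 and 12.04, so the arms overlapped, with CHD4 shRNA higher by 0.41, 0.15 and 0.37 within the replicate numbers. With a replicate block within each line 202603_at (limma adjusted p = 0.0387) and 202604_x_at (0.0295) passed. A block for the MV4-11 arrays only, chosen after seeing the data, gave 0.0367 for 202603_at in limma. Without CHD4 shRNA replicate 2 that probe set passed with no block, at 0.43 (limma adjusted p = 0.0371). It passed in 3 of its 22 alternatives, and 202604_x_at in 1 of 20. Between the scrambled controls 202603_at was lower in MV4-11 on every array, by a log2 difference of -0.26 that did not pass (limma adjusted p = 0.226).

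ADAM8, a leukocyte protease that sheds adhesion molecules, did not pass on either of its 2 probe sets, which had differences of 0.043 and 0.027 in U937 and of 0.15 and 0.070 in MV4-11, with intervals between -0.21 and 0.38. On 205180_s_at the MV4-11 arms did not overlap, at 6.96, 6.87 and 6.83 against 7.05, 7.06 and 6.99, but the shift was small (limma adjusted p = 0.483).

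Over the 22 probe sets, 1 was higher and 0 lower in U937, where 4.51% of all probe sets passed, and 1 was higher and 2 lower in MV4-11, where 7.47% passed. With the replicate block within each line the MV4-11 count was 5, where 16.7% of all probe sets passed. The arms did not overlap on 6 of the 22 in U937, where 24.2% of all probe sets had no overlap, and on 3 in MV4-11, where the share was 23.8%. At an unadjusted p under 0.05 limma called 4 of the 22 in U937 and 5 in MV4-11, beside 17% and 22.3% of all. The counts of the 22 are to be read against these shares, and in MV4-11 the 3 calls came from MMP9 and PLAU alone. The median log2 difference of the 22 was 0.022 in U937 and 0.057 in MV4-11, beside -0.0033 and -0.027 over all probe sets. In the difference between the lines limma called 0 of the 22, and 0% of all probe sets; at an unadjusted p under 0.05 it called 0 of the 22 and 4.41% of all.

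**Figure D3:**
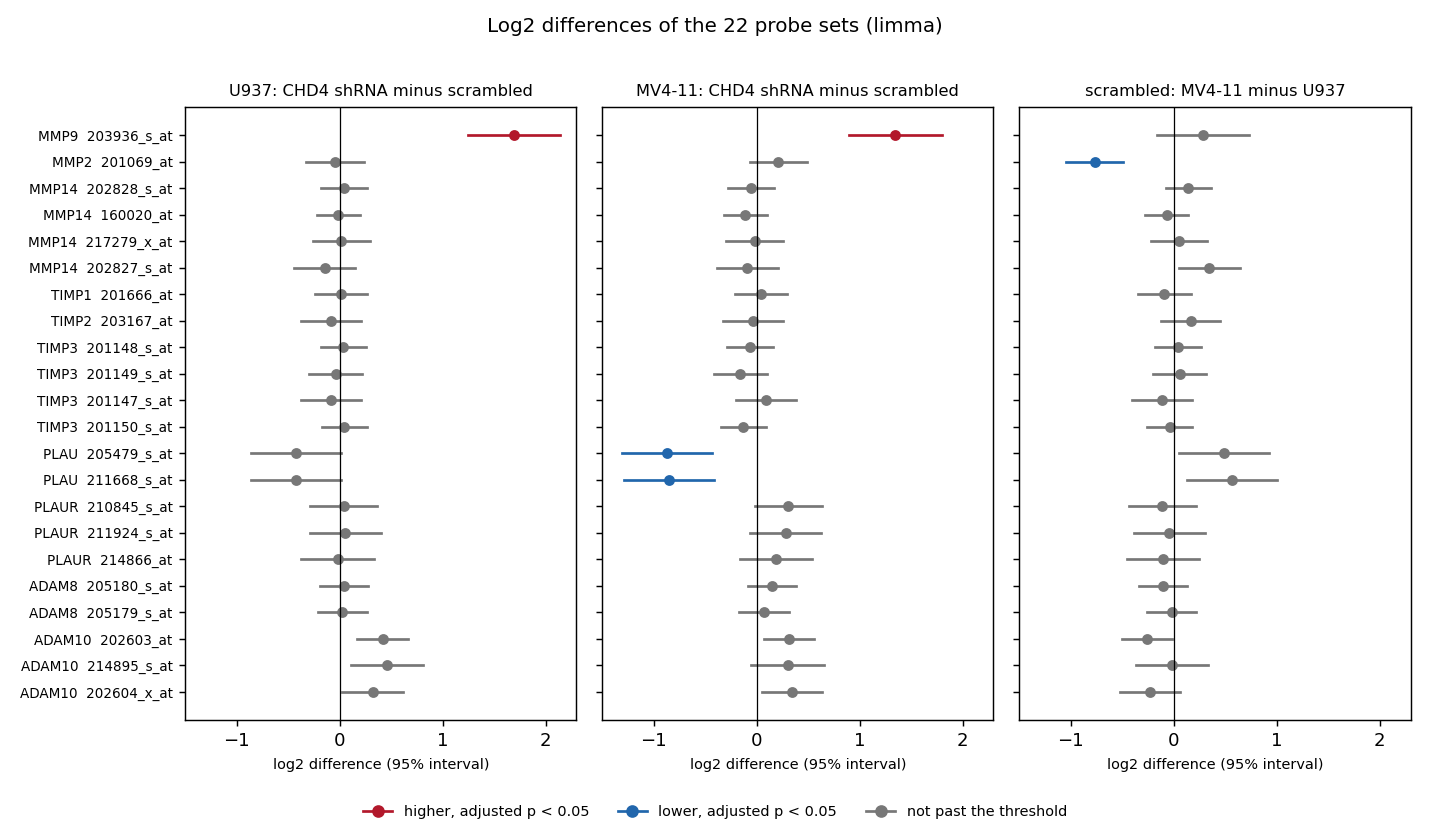
Log2 differences (horizontal axes) of the 22 probe sets with 95% intervals from limma, for CHD4 shRNA minus scrambled in U937 and in MV4-11 and for MV4-11 minus U937 scrambled controls. MMP9 stands alone at 1.69 in U937, MMP9 (1.35) and both PLAU probe sets (-0.87 and -0.85) pass in MV4-11, and MMP2 (-0.77) passes between the controls.

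The wider pathway was read from 12 lists with 153 genes, of which 129 were measured. A gene is counted if at least 1 of its probe sets passed. In U937 5 of the 129 rose and 5 fell, or 3.88% each way, where 2.57% of all genes rose and 3.69% fell. In MV4-11 10 rose (7.75%) and 9 fell (6.98%), where 5.35% of all genes rose and 4.91% fell. The median difference over the lists was 0.023 in U937 and 0.020 in MV4-11, beside -0.0033 and -0.027 over all genes.

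Among 18 other matrix metalloproteinases 1 rose in U937 and 2 in MV4-11, and none fell; their median differences were 0.013 and -0.043. MMP25, a leukocyte enzyme anchored to the membrane, increased by 0.50 (SE 0.12, limma adjusted p = 0.029) in U937 and by 0.44 (SE 0.12, limma adjusted p = 0.0378) in MV4-11 on its brighter probe set, while its other probe set differed by -0.22 and 0.083 and did not pass. MMP7, which cleaves a wide range of matrix proteins, rose in MV4-11 by 0.82 (SE 0.23, limma adjusted p = 0.0469) and differed by 0.69 in U937 (limma adjusted p = 0.121).

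Of 8 inhibitors and surface partners of these enzymes, 1 rose in U937, and 1 rose and 1 fell in MV4-11, with medians of 0.21 and -0.037. The riser in both was RECK, a membrane-anchored protein that inhibits MMP9, MMP2 and MMP14. Its brightest probe set read 8.49, 8.50 and 8.52, then 9.21, 9.35 and 9.66 in U937, and 8.39, 8.30 and 8.60, then 9.22, 8.88 and 9.41 in MV4-11. All CHD4 shRNA arrays were above all scrambled arrays of their line, by 0.90 (SE 0.14, limma adjusted p = 0.00402) and 0.74 (SE 0.14, limma adjusted p = 0.00922). The other 2 RECK probe sets differed by -0.10 to 0.13 and did not pass. The hyaluronan receptor CD44, a docking site for MMP9, fell in MV4-11 on 4 of its 8 probe sets, by log2 differences of -0.71 to -0.62, whereas its brightest one differed by 0.11 (limma adjusted p = 0.651); CD44 lies outside the naming rule and is given because it completes the count.

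In the rest of the plasminogen system, 10 genes measured, 1 fell in U937 and 2 in MV4-11, and none rose. PLGRKT, a plasminogen receptor of monocytes, read 8.84, 8.73 and 8.85, then 7.96, 7.77 and 7.59 in U937, and 8.69, 8.70 and 8.59, then 7.65, 7.60 and 7.76 in MV4-11. The arms were far apart in both lines, with log2 differences of -1.03 (SE 0.10, limma adjusted p = 0.000183) and -0.99 (SE 0.10, limma adjusted p = 0.000216). SERPINE2, a secreted inhibitor of urokinase and thrombin, had a log2 difference of -0.79 in MV4-11 (SE 0.21, limma adjusted p = 0.04). The list medians were -0.018 and 0.027.

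Membrane partners of the urokinase receptor, 10 genes, gave 2 rises in U937 and 3 in MV4-11 and no fall, with medians of 0.18 and 0.31. The integrin chain ITGB1 was higher in both lines, by 0.54 and by 0.55 (SE 0.10 each; limma adjusted p = 0.0104 and 0.00753), its other 4 probe sets not passing. ITGA5, which pairs with it as the fibronectin receptor, rose by 0.49 in U937 (SE 0.13, limma adjusted p = 0.0495). In MV4-11 the integrin ITGAM rose by 1.41 (SE 0.21, limma adjusted p = 0.00212), with a second probe set at -0.11 and not passing. The formyl peptide receptor FPR2 rose by 2.53 there (SE 0.51, limma adjusted p = 0.0106), at 8.88, 9.90 and 7.15 on the CHD4 shRNA arrays against 6.01 to 6.17 in controls, with replicate 2 the highest.

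Leukocyte serine and cysteine proteases moved in both directions. Of 13 genes, 1 rose and 2 fell in U937 and 3 rose and 3 fell in MV4-11, with medians of 0.083 and 0.15. Neutrophil elastase, ELANE, had log2 differences of -0.82 and -0.69 (SE 0.17 each; limma adjusted p = 0.0173 and 0.029), and the lysosomal protease CTSD of -0.62 and -0.71 (SE 0.11 each; limma adjusted p = 0.00724 and 0.00287), in U937 and MV4-11 in turn. Cathepsin G, CTSG, fell in MV4-11 by 0.74 on the log2 scale (SE 0.17, limma adjusted p = 0.0227). The granzyme GZMA (1.93, SE 0.43) and the cathepsin CTSZ (0.49, SE 0.13, on its brighter probe set) rose in MV4-11 (limma adjusted p = 0.0177 and 0.0432). The other CTSZ probe set had a lower mean there with CHD4 shRNA (7.41) than with scrambled shRNA (7.58). CTSB rose in both lines on 2 of its 4 probe sets, by 0.40 to 0.55, though not on its brightest one (0.11 and 0.20), and is named here because it completes the count. Among 10 inhibitors of such proteases, SLPI, which inhibits elastase, was the 1 gene to pass, with a rise of 0.81 in MV4-11 (SE 0.22, limma adjusted p = 0.0387).

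No gene passed in either line among 15 other ADAM proteases, 5 trafficking partners of ADAM10 and ADAM17, 10 ADAMTS proteases and 4 proprotein convertases, by limma. At an unadjusted p under 0.05 limma called 1 of 30, 1 of 5, 0 of 12 and 1 of 7 probe sets of these lists in U937, in that order. In MV4-11 the numbers were 2, 3, 1 and 0. The shares over all probe sets were 17% in U937 and 22.3% in MV4-11. The highest and lowest differences in these lists were 0.75 and -0.30, both in MV4-11. Of 14 surface proteins known to be shed, 1 fell in U937 and 2 in MV4-11: the interleukin-6 receptor IL6R, by log2 differences of -0.42 and -0.73 (SE 0.11 each; limma adjusted p = 0.0445 and 0.00234), and NOTCH2, by -0.49 in MV4-11 (SE 0.13, limma adjusted p = 0.0401). Of 12 transcription factors with described sites in the MMP9 promoter none rose, and 1 fell in each line. NFKB1 fell in U937 by 0.63 on the log2 scale (SE 0.11, limma adjusted p = 0.00802) and ETS2 in MV4-11 by 0.49 (SE 0.097, limma adjusted p = 0.00972).

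**Figure D4:**
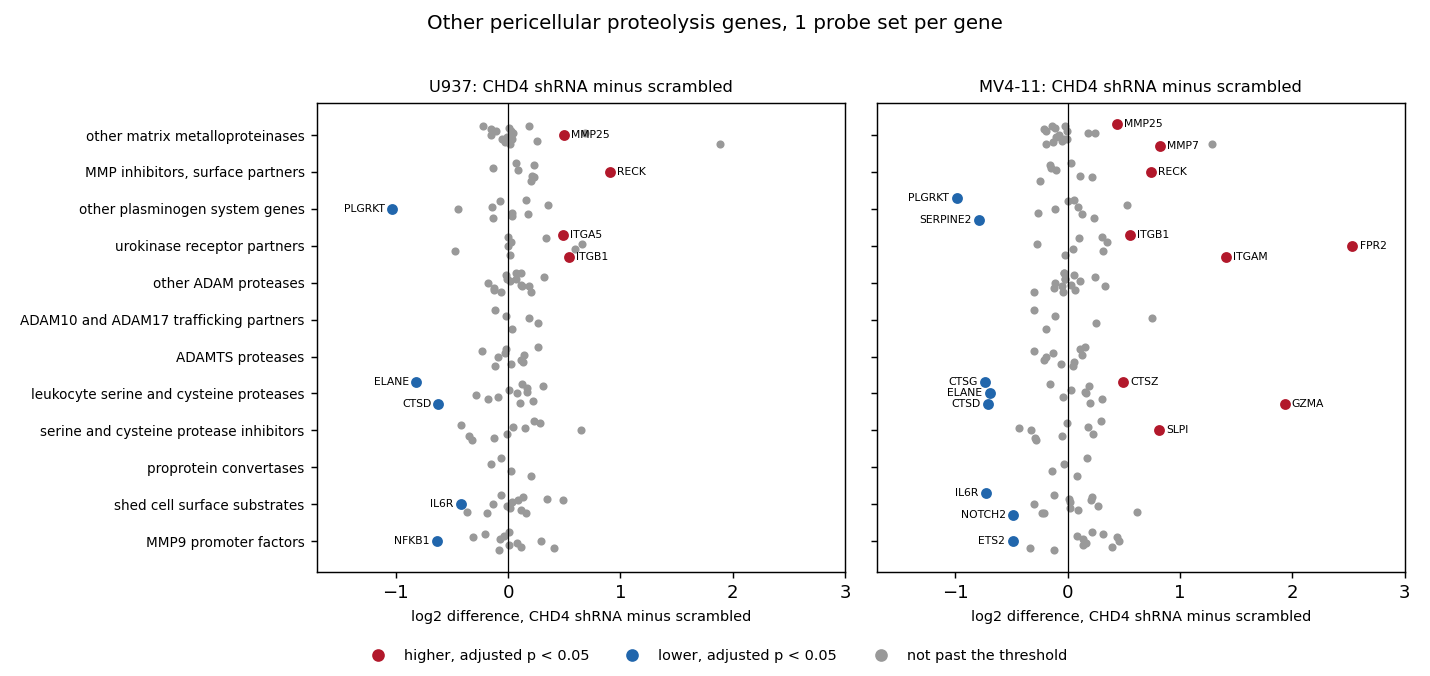
Log2 differences (horizontal axes), CHD4 shRNA minus scrambled, of the 129 measured genes of 12 lists in U937 and MV4-11, with the brightest probe set standing for each gene and those past the threshold named. RECK (0.90 and 0.74) and MMP25 (0.50 and 0.44) are higher in both lines, and PLGRKT (-1.03 and -0.99) lies lowest in both.

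Likeness to MMP9 was measured as Pearson's r over the 12 arrays after each line's mean was subtracted, for 11953 genes. These arrays share their treatment groups, so any gene with a steady CHD4 shRNA difference scores high, and r is given as a description without a test. The 6 highest were WDFY3 (0.981), SIRPA (0.978), AIM2 (0.976), PLEKHM1 (0.975), CSRP3 (0.974) and PTTG1IP (0.974). When the mean of each of the 4 groups was subtracted instead, r for these genes was between 0.75 and 0.94, the highest for the cytosolic DNA sensor AIM2. AIM2 went from 4.96 ± 0.21 to 7.05 ± 0.93 in U937 and from 4.47 ± 0.17 to 6.5 ± 0.79 in MV4-11 (SD, n = 3), with limma adjusted p = 0.0124 and 0.0115. The 3 lowest were FAM162A (-0.992), GNPDA1 (-0.985) and PLGRKT (-0.983), the plasminogen receptor described above.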

How the data were processed

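The deposited table holds log2 values with 2 decimals from Affymetrix arrays hybridised with biotinylated cRNA, for which RMA is named per the submitters' processing notes, without a version and without saying if all 12 arrays went through it at once. That the values are log2 was judged from their range (2.54 to 15.11). RMA gives the probe signals of every array the same distribution, before they are combined into probe sets, and so hides a shift common to most genes. Of 22277 probe sets, 62 controls were left out; 19064 had 1 gene symbol in the platform annotation, 1043 several and 2108 none. No gene was named from a probe set with several.

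One linear model with 4 groups was fitted to all 22215 probe sets (limma 3.58.1, R 4.3.3; lmFit, eBayes without trend; 8 residual and 4.86 prior degrees of freedom). Benjamini-Hochberg adjustment covered all of them, with a threshold of 0.05; intervals are limma's 95% intervals, unadjusted. The script was tested on simulated data. The series description calls the triplicates biological, and their number limits the precision. With 3 arrays against 3 an exact permutation test cannot give a p below 0.1 and was not used.

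Genes named are the 10 members, up to 3 per list, line and direction with the lowest adjusted p on the brightest probe set, and those most like MMP9. The members and lists were chosen with earlier results of these data known. Same-numbered scrambled and CHD4 shRNA arrays deviated together in MV4-11 (r = 0.43, 0.47 and 0.49), so the numbers count as pairing these arrays; they are those of the titles, whose meaning is not stated. The main model has no block, and blocked values are given beside it. In U937 r was 0.012, 0.34 and 0.36, under the minimum of 0.1 for 1 pair, and no pairing was assumed. Arrays of unlike number had r from -0.36 to -0.035 in MV4-11 and from -0.41 to 0.17 in U937, so pairing in U937 was left undecided. Alternatives were other scalings, filters, probe set choices, thresholds, replicate blocks and leaving out each array; the block in MV4-11 alone was added after seeing the data.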

Additional observations from a re-analysis of the deposited data

How the results depend on the processing

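MMP9 kept its direction and its call in both lines under all 22 alternatives; leaving out 1 array gave log2 differences from 1.43 to 1.89 in U937 and from 1.26 to 1.5 in MV4-11. With a replicate block the MMP9 adjusted p in limma was at most 0.00849 in either line. The number of the 22 probe sets called in U937 was 1, and 1 to 2 without 1 array. The share of all probe sets called in the same fit is given in brackets, and was 4.51% in the main fit. The number was 2 without the dimmest 25% of probe sets (6.61%), with trend and robust fitting (4.63%) and at a threshold of 0.1 (7.29%). With 1 probe set per gene it was 2 of 10 (6.36% of all genes). It was 3 with only the groups compared (4.89%). Under a replicate block inside the lines it was 5 (9.68%), and under a replicate block for the MV4-11 arrays only it was 4 (7.32%). The probe sets gained were of ADAM10 and PLAU. In MV4-11 the number was 3 (7.47%), and 1 to 3 without 1 array. It was 1 with only the groups compared (3.23%) and 1 at a threshold of 0.01 (2.31%). Under a replicate block inside the lines it was 5 (16.7%), and under a replicate block for the MV4-11 arrays only it was 4 (13.1%). With 1 probe set per gene it was 2 of 10 (9.42% of all genes). In U937, where no pairing was assumed, the replicate block inside the lines gave limma adjusted p = 0.0251 for both PLAU probe sets and 0.0184 and 0.0179 for the ADAM10 probe sets 202603_at and 214895_s_at. Between the scrambled controls it was 1, and 1 to 2 without 1 array, MMP2 being called in all fits. The number of all probe sets called ran from 396 to 1210 in U937 and from 546 to 3143 in MV4-11 without 1 array. Of single values under alternatives, 1737 kept their side of the threshold, 19 came to pass, 10 no longer passed and 0 called values changed sign. Most of the 1737 were of probe sets not called in the main fit, so this total says little about the calls. The 10 losses were all of PLAU in MV4-11, whose probe sets lost their call in 5 of 22 and 5 of 20 alternatives. Dim probe sets, 2 of TIMP3 among them, limit what these arrays can show.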

Other observations

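The interstitial collagenase MMP1 had the largest difference of the 18 other matrix metalloproteinases measured in both lines and did not pass. It was singled out after its values were seen. Its mean over all arrays (5.065) lay below the level of the dimmest 25% of all probe sets (5.34). In U937 it read 4.53, 4.79 and 4.52 with scrambled shRNA and 5.28, 5.22 and 9.0 with CHD4 shRNA. In MV4-11 it read 3.75, 4.14 and 3.90, then 4.22, 7.14 and 4.29. The arms did not overlap in either line, and in each a single CHD4 shRNA array, replicate 3 in U937 and replicate 2 in MV4-11, carried most of the log2 differences of 1.89 and 1.29 (SE 0.89 each; limma adjusted p = 0.302 and 0.444). These are the arrays that stood apart on the first principal component.

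GZMA followed a like pattern in U937, with 4.57, 5.03 and 6.52 on the CHD4 shRNA arrays against 4.94 to 5.48 in controls, although it rose on all 3 CHD4 shRNA arrays in MV4-11 (7.31, 8.22 and 6.67 against 5.39 to 5.52). MMP7 was likewise highest in U937 CHD4 shRNA replicate 3, at 7.12 beside 6.21 and 6.14, and in MV4-11 CHD4 shRNA replicate 2, at 6.85 beside 6.39 and 6.33. The part of these arrays in the differences was not tested for GZMA and MMP7.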
